A study of Mus musculus with 6 samples.

Results

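The genes described here build the MHC class II pathway of antigen presentation. They were chosen by name, and all 9 were found among the 31053 genes measured: H2-Aa, H2-Ab1, H2-Eb1, Cd74, H2-DMa, H2-DMb1, H2-DMb2, Ciita and Cd86. An MHC class II molecule is a pair of an alpha and a beta chain that shows peptides to CD4+ T cells. H2-Aa and H2-Ab1 encode the alpha and the beta chain of the H2-A molecule, and H2-Eb1 encodes the beta chain of H2-E. Cd74 encodes the invariant chain, which holds the peptide groove of new class II molecules until they reach endosomes. H2-DMa pairs with H2-DMb1 or H2-DMb2 to form H2-DM, which exchanges the remnant of the invariant chain for a peptide. Ciita is the transactivator that switches on class II genes together with factors already seated on their promoters. Cd86 is a costimulatory ligand of the T cell receptor CD28 and belongs to no class II molecule. Dendritic cells carry class II molecules at all times, whereas microglia, the resident macrophages of the brain, are known for low levels that increase in inflammation.

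Immune cells expressing CD45 were sorted from the tumor-bearing right hemisphere of SCID mice aged 6 to 8 weeks by their labels, and single-cell RNA sequencing libraries were prepared from them with 10x Chromium 3′ chemistry. Each mouse received 50000 cells of U87, a human glioma cell line, by intracranial injection. In 3 mice the U87 cells expressed IL-33 and the tissue was taken at 3 weeks, and in 3 mice they carried the pcDNA vector and the tissue was taken at 6 weeks. The 6 libraries are pooled in 1 matrix, whose barcodes end in a suffix from 1 to 6 that names no mouse. IL-33-expressing and control tumors were therefore not compared, and no p-value was computed. Dixon's outlier check of the suffixes, given at the end, was the only statistical test. SCID mice lack mature T and B cells, the usual partners and companions of class II presenting cells, and only 3 T cell-like and 1 B cell-like barcodes were found. The implanted cells are human and the reads were aligned to the mouse genome alone.

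Class II promoters carry a short conserved module with an X box, bound by RFX proteins, and a Y box, bound by NF-Y. RefSeq promoter windows of the GRCm38.p6 assembly, from 250 bases before to 50 after a gene's start, were at hand for 5 of the 9 members, in 6 windows. The core of the Y box, GATTGG, searched on both strands, was present in 5 of these 6 windows and in 16.1% of the 32851 windows of all genes. A longer pattern of the X1 box, read as AG, 2 free bases, AC, 1 free base and GATG and also searched on both strands, was present in 2 windows, those of H2-DMb1 and H2-Eb1, and in 0.968% of all windows. The letters of both patterns were written with these windows in view, so the matches describe the windows and mark no tested binding site. The 150 bases before the start of H2-Aa and of H2-Eb1 are shown because these chains varied most between cells. Capitals mark the Y box core, or its complement CCAATC on the other strand, and in H2-Eb1 also the X1 pattern.
H2-Aa, chr17:34287824-34287973, minus strand: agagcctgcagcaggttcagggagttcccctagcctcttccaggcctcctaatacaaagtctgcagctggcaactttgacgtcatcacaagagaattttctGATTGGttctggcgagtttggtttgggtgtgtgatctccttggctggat
H2-Eb1, chr17:34305717-34305866, plus strand: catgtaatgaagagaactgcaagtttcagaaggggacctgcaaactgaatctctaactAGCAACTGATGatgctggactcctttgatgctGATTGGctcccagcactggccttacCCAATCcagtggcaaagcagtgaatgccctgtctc
The window of H2-Eb1 also overlaps an exon of Gm20513, a gene on the opposite strand. On chromosome 17 of GRCm38, H2-Aa spans 34282744 to 34287823 on the minus strand, H2-Ab1 34257689 to 34269419 and H2-Eb1 34305867 to 34316674. H2-DMa spans 34119541 to 34139101, H2-DMb2 34143307 to 34151555 and H2-DMb1 34153072 to 34160230 on the same chromosome, so all 6 of these genes lie in a single cluster. H2-DMa overlaps Brd2 on the opposite strand and CR974462.3 on its own strand. Ciita, at 10480059 to 10528418, and Cd86, at 36603869 to 36666081, both lie on chromosome 16. H2-DMb1 and H2-DMb2 are paralogs that share some sequence. Of the stretches of 98 bases, the length of the transcript read, 185 were present in both, 11.7% of those of H2-DMb1 and 10.6% of those of H2-DMb2. In the last 500 bases of the transcripts, where 3′ reads are taken, 13.6% of those of H2-DMb1 and 0% of those of H2-DMb2 were shared, and the split of reads between the 2 genes is uncertain to that extent.

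Of 40411 barcodes, 38751 passed the filters on genes and mitochondrial counts, and the suffixes held 2879 to 10217 barcodes and 9745192 to 24393841 unique molecular identifiers (UMIs). The suffixes were not separate in their barcodes. In all, 3890 barcode sequences occurred under more than 1 suffix, and they accounted for 14722 barcodes, or 36.4%, from 20.7% in suffix 3 to 51.0% in suffix 5. These barcodes were shallow, with a median of 698 to 1125 UMIs per suffix against 2729 to 3740.5 for the rest. Copies of 1 sequence under 2 suffixes also resembled each other. Among microglia-like copies, a class II UMI was seen in 36.3% to 71.6% of barcodes whose copy had one, depending on the pair of suffixes, and in 8.10% to 29.1% of barcodes whose copy had none. The cause of the shared sequences was not tested. The summed levels, the calls, the member ratios and the Cd74-high shares were therefore also computed from barcodes whose sequence occurred under a single suffix. The other values below use all barcodes. The shared sequences touched 37.4% of microglia-like barcodes but only 2 of 47 dendritic cell-like and 7 of 134 monocyte-like ones.

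Cells were gated by marker genes that include none of the 9 members. The dendritic cell-like gate held 47 cells, with 18 in suffix 4, 11 in suffix 5, 16 in suffix 6, 1 each in suffixes 1 and 2 and none in suffix 3. The monocyte-like gate held 134 cells, of which 63, 20 and 41 were in suffixes 4, 5 and 6, and the microglia-like gate held 36985 cells, 95.4% of those kept. In the dendritic cell-like gate 7 of the 11 dendritic cell markers were detected, while Xcr1, Itgae, Ccr7 and Cacnb3 were at 0. The 11 summed to 2666 UMIs per 1000000 UMIs of the gate (counts per 1000000, or CPM), against 15.5 in microglia-like cells. This contrast follows from the rule and is no check of identity. A dendritic cell-like cell needed at least 2 of these markers, and a microglia-like cell could not have 2. The leading genes of the dendritic cell-like gate were Ccl17, Gm21762, Cd8b1 and the listed marker Kmo. Fcrla, Gm14161, the immunoglobulin gene Iglc3, Upb1, the listed marker Dpp4 and Cd209d came next. This gate also carried monocyte markers at 4188 CPM against 6586 in the monocyte-like gate, and microglia markers at 490 CPM with 5 of 7 at 0. A cell that passed both the dendritic cell and the monocyte gate was kept as dendritic cell-like and left out of the monocyte-like gate. Markers of NK cells, granulocytes, B cells, T cells and choroid plexus were at 0 in the dendritic cell-like gate. Cells that also passed any of those gates were kept out, so these values follow in part from the rule. The part of the monocyte transcripts in the class II levels of the dendritic cell-like gate was not tested. No listed marker was among the 10 leading genes of the monocyte-like gate, which began with Gda, F10 and Sirpb1c. All 5 monocyte markers were detected in it, but the gate itself asks for 2 of them. Dendritic cell markers summed to 527 CPM in the monocyte-like gate, with 5 of 11 detected, since a cell with 1 of them could pass. The part of dendritic cell transcripts in the class II levels of the monocyte-like gate was not tested.

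Dendritic cell-like cells carried far more class II transcript than microglia-like cells. The summed level of Cd74, H2-Aa, H2-Ab1 and H2-Eb1 was 26017 CPM (95% interval 25368 to 26678) in the 47 dendritic cell-like cells and 437 CPM (432 to 441) in microglia-like cells, a ratio of 59.6 (58.0 to 61.2). Without the shared barcodes the levels were 26810 and 450 CPM. A gene was called where its level differed at least 4-fold, and 8 of the 9 members were called higher, against 9.51% of the 8236 genes with at least 10 CPM in either gate, and 8 were called without the shared barcodes too. The median ratio of the members was 37.3 and that of all these genes was 1.11. The ninth member, Cd86, had a ratio below 1. No suffix held 20 dendritic cell-like cells, so a call rests on the pooled level, and the direction is given for the 3 suffixes with at least 10 of them. Suffix 1 alone held most of the class II transcript of microglia-like cells, and without it the ratio of the summed levels was 101.

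**Figure D1:**
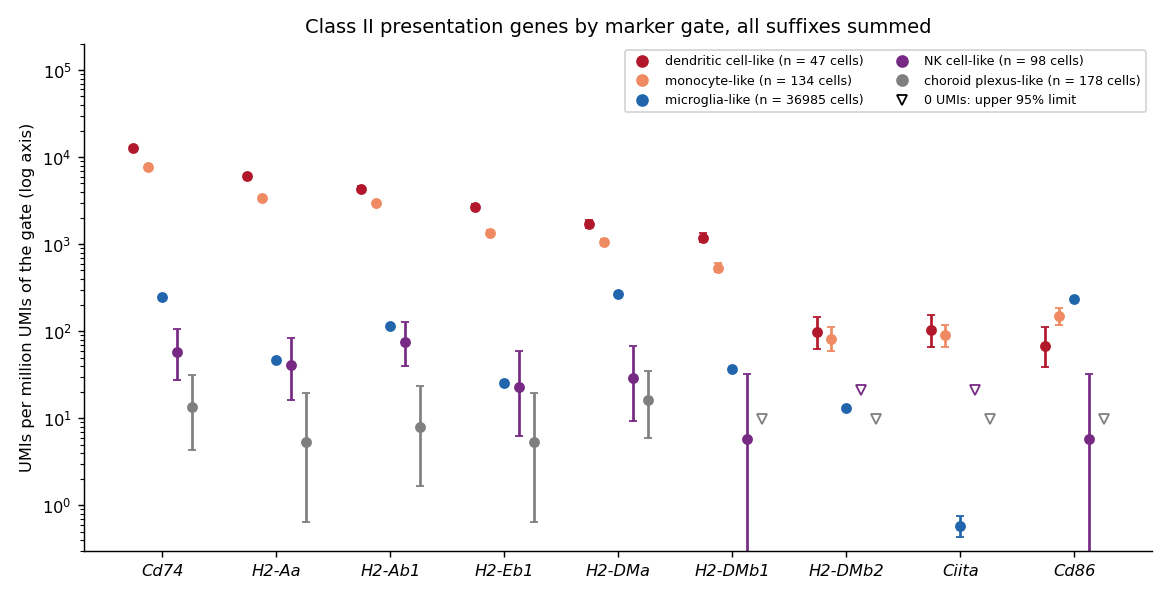
Level of each member, in UMIs per 1000000 on a log axis, in the gated groups of cells, with exact Poisson 95% intervals. Cd74 was at 12889 CPM in dendritic cell-like and 247 CPM in microglia-like cells, whereas Cd86 was at 68.2 and 235 CPM.

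Among the peptide-binding chains, H2-Aa stood at 5463, 6776 and 6518 CPM in the dendritic cell-like cells of suffixes 4, 5 and 6. In microglia-like cells it stood at 141, 22.5, 9.07, 13.7, 29.6 and 40.2 CPM in suffixes 1 to 6. The ranges were far apart, and the pooled levels of 6108 and 47.3 CPM gave a ratio of 129 (122 to 137). H2-Ab1, its beta partner, was at 3908, 4268 and 4859 CPM in dendritic cell-like cells. In microglia-like cells it was at 244, 87.2, 76.6, 67.7, 88.5 and 99.6 CPM, which left a smaller ratio of 37.3 (34.9 to 39.8). H2-Eb1, the beta chain of H2-E, followed H2-Aa, with 2309, 2602 and 3189 CPM in dendritic cell-like cells. It ranged from 4.42 to 75.1 CPM in microglia-like cells over the 6 suffixes, and its pooled ratio was 104 (95.1 to 114). Both H2-Aa and H2-Eb1 were thus separated from microglia-like cells by a wider margin than H2-Ab1. The gene of the matching H2-E alpha chain, H2-Ea, was not among the genes listed in the matrix.

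Cd74, the invariant chain, had the highest UMI count of the members, with 3022 of its UMIs in the 47 dendritic cell-like cells. Its level there was 10137, 12766 and 15477 CPM in suffixes 4, 5 and 6. In microglia-like cells it was 697, 133, 102, 99.8, 181 and 156 CPM in suffixes 1 to 6. No suffix overlapped between the gates, and the pooled ratio was 52.2 (50.2 to 54.2), or 94.2 without suffix 1.

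The H2-DM genes, which edit the peptides, did not form a block. H2-DMa was already at 242 to 321 CPM in microglia-like cells of every suffix. Dendritic cell-like cells had 1385, 1778 and 2068 CPM of it, so the ratio was 6.42 (5.80 to 7.09), the lowest of the 8 called members. H2-DMb1 was at 1171, 1404 and 1145 CPM in dendritic cell-like and at 26.6 to 70.6 CPM in microglia-like cells, a ratio of 32.1 (28.3 to 36.3). Its paralog H2-DMb2 was lower in UMIs, with 23 UMIs in dendritic cell-like cells, 98.1 CPM there and 13.1 CPM in microglia-like cells. That ratio of 7.47 (4.72 to 11.3) rested on few counts, and after each cell was thinned to 500 UMIs the dendritic cell-like cells had 0 UMIs of H2-DMb2, leaving 7 members called. The alpha chain H2-DMa and the beta chain H2-DMb1 therefore differed in how far apart the gates were, H2-DMb1 being the more restricted. The interval of the other beta chain, H2-DMb2, covered the ratio of H2-DMa.

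Ciita, the transactivator, had 24 UMIs in the 47 dendritic cell-like cells and 53 UMIs in all 36985 microglia-like cells. Its levels were 90.1, 93.6 and 128 CPM in dendritic cell-like cells of suffixes 4, 5 and 6. In microglia-like cells it was at 2.11 CPM in suffix 1 and at 0.0868 to 0.339 CPM in suffixes 2 to 6. The pooled ratio of 176 (104 to 290) was the highest of the members and had the widest interval. It was 505 without suffix 1.

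Cd86 went the other way. It was at 45.1, 56.2 and 105 CPM in dendritic cell-like cells and at 237, 241, 220, 224, 250 and 232 CPM in microglia-like cells. Every one of these microglia-like values was above all 3 dendritic cell-like ones, and the pooled ratio was 0.290 (0.166 to 0.471). This was lower in 3 of 3 suffixes, although only 16 UMIs of Cd86 were seen in dendritic cell-like cells. The microglia-like levels of Cd86 also varied least among suffixes, and suffix 1, the highest for the other 8 members, was not the highest for Cd86.

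Monocyte-like cells lay between the gates for most members and were uneven among themselves. Their summed class II level was 15430 CPM, or 15058 CPM without shared barcodes, and 35.3 times that of microglia-like cells. Again 8 of 9 members were called higher, against 6.49% of all genes, with ratios from 4.02 for H2-DMa to 154 for Ciita. The interval of H2-DMa, 3.70 to 4.37, includes the 4-fold limit, so its call is marginal. Cd86 had a ratio of 0.637 (0.505 to 0.793). By suffix 4, 5 and 6, Cd74 was at 7083, 13536 and 7423 CPM in monocyte-like cells and the summed level was 14810, 26376 and 14478 CPM. The level of suffix 5 lay within the dendritic cell-like range for class II, and it was 21191 CPM without the shared barcodes.

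Against monocyte-like cells, dendritic cell-like cells differed by less than 4-fold in all 9 members, and none was called, where 2.22% of 7492 genes were called higher and 1.2% lower. The ratio was 1.67 for Cd74, 1.78 for H2-Aa, 1.48 for H2-Ab1 and 1.98 for H2-Eb1. H2-Aa, H2-Eb1, H2-DMa and H2-DMb1 were higher in dendritic cell-like cells in 3 of 3 suffixes, and H2-DMb1 had the largest ratio, 2.23 (1.88 to 2.64). Cd74 and H2-Ab1 were higher in only 2 of 3 suffixes. For H2-DMb2 and Ciita the ratios of 1.19 (0.686 to 2.01) and 1.14 (0.667 to 1.89) had intervals that include 1. Cd86 was lower in dendritic cell-like than in monocyte-like cells, with a ratio of 0.455 (0.248 to 0.785).

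The monocyte-like gate divided by Ly6c2, a marker of classical monocytes. Its 87 cells with a Ly6c2 UMI had a summed class II level of 8283 CPM and the 47 cells without had 29789 CPM, above the 26017 CPM of dendritic cell-like cells. By suffix 4, 5 and 6 the cells without were at 30779, 50954 and 23639 CPM, from 23, 7 and 14 cells. Dendritic cell-like cells were there at 21817, 26411 and 30043 CPM, so the order was reversed in suffix 6. Cd74 was at 4466 and 14207 CPM, H2-Aa at 1743 and 6841 CPM, and H2-Eb1 at 592 and 2871 CPM in cells with and without Ly6c2. The difference was smaller for H2-DMa, at 904 and 1393 CPM, and it was slight for Cd86, at 140 and 169 CPM. H2-DMb1 was at 253 and 1105 CPM. Ciita was at 56.1 and 158 CPM, from 20 and 28 UMIs, but its order differed among suffixes. In suffix 4 it was at 81.1 CPM with and 24.3 CPM without Ly6c2. In suffix 5 it was at 60.9 and 266 CPM and in suffix 6 at 34.0 and 294 CPM. Because a cell passes this gate with 2 of 5 markers, cells without Ly6c2 were gated on the other 4 genes. Within the dendritic cell-like gate 40 cells had Cd209a and 7 had Xcr1 or Clec9a, and these sets overlap. Their pooled levels were closer, at 25057 and 29819 CPM. By suffix 4, 5 and 6 the cells with Cd209a were at 17598, 26514 and 30403 CPM. Those with Xcr1 or Clec9a were at 2280, 41376 and 36636 CPM, from only 2, 2 and 3 cells.

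Single cells of a gate were as variable as the gates. In dendritic cell-like cells the summed class II UMIs per 1000 UMIs of a cell had a median of 14.4 and ran from 0 to 79.7, with 3 cells at 0. In monocyte-like cells the median was 1.00, the highest cell stood at 93.4, and 39.6% of cells had none. Monocyte-like cells thus held cells as high as any dendritic cell-like cell beside cells without a class II UMI. In microglia-like cells 74.5% of cells had none, at a median depth of 2437 UMIs, but the highest cell stood at 95.6. Cells as high as the highest dendritic cell-like cell were thus present in the microglia-like gate too.

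Cells that should lack class II were read for comparison, and the level of free RNA was not measured. Choroid plexus-like cells, epithelial cells that had escaped the sort, had a summed class II level of 32.2 CPM, and 93.3% of the 178 cells had none at a median of 1014.5 UMIs. In them Cd74 was at 13.4 CPM, H2-Aa at 5.37 (0.651 to 19.4), H2-Eb1 at 5.37 and H2-Ab1 at 8.06 CPM (1.66 to 23.5). H2-DMb1, H2-DMb2, Ciita and Cd86 had 0 UMIs, which allows up to 9.91 CPM each. NK cell-like cells were at 197 CPM for the sum, and their 40.6 CPM of H2-Aa (16.3 to 83.6) and 23.2 CPM of H2-Eb1 were close to the 47.3 and 25.7 CPM of microglia-like cells. The 35 granulocyte-like cells had 2 class II UMIs. The pooled levels of the 4 class II genes in microglia-like cells were above the choroid plexus-like ones. Of all 72126 class II UMIs in kept cells, 55.1% were in microglia-like, 11.4% in monocyte-like and 8.46% in dendritic cell-like cells. Another 6.25% were in cells that passed no gate, whose summed level was 6798 CPM. The 429 cells that passed both the microglia gate and a gate other than dendritic held 7.95%. Another 90 cells passed several gates outside microglia, not counting the monocyte gate beside the dendritic cell or NK cell gate, and held 6.36%. A group of 38 cells that passed both the dendritic cell and the microglia gate, which may include doublets, held 4.26% and was left out of both.

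A wider list of 28 genes of the pathway was read in the same comparisons, and 25 of them were found in the matrix. Of 22 with enough counts, 1 was called higher in dendritic cell-like than in microglia-like cells, against the 9.51% of all genes given above, and 2 were called lower, against 4.94%. The higher gene was Cd40, a receptor through which T cells activate presenting cells, at 46.9 and 0.571 CPM. The lower genes were the endosomal proteases Ctss and Lgmn. Ctss, which trims the invariant chain, was at 1612 CPM in dendritic cell-like and 9259 CPM in microglia-like cells, and Lgmn, or legumain, at 166 and 7372 CPM. Ctsl was also lower at 320 and 999 CPM but missed the 4-fold limit. Sppl2a, the intramembrane protease that clears the end of the invariant chain, was at 93.8 and 52.7 CPM, a ratio of 1.78 (1.12 to 2.70), and was not called. Of these 4 proteases, Ctss, Lgmn and Ctsl had lower and Sppl2a higher levels in dendritic cell-like cells. Rfx5, Rfxap and Rfxank, whose products form the complex on the X box, had 1, 12 and 2 UMIs in dendritic cell-like cells, and their levels of 4.27, 51.2 and 8.53 CPM compared with 13.4, 25.2 and 16.4 CPM in microglia-like cells. None of them was called in either direction.

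In monocyte-like cells Cd40 was again the only called gene of 23 above microglia-like cells, at 67.5 CPM. Lgmn and Icosl, a costimulatory ligand, were called lower, where 7% of all genes were. Between dendritic cell-like and monocyte-like cells, H2-Oa and Icosl were called higher of 20 genes, beside the 2.22% of all genes. Both rested on few UMIs, with 12 against 4 for H2-Oa, a ratio of 6.83 (2.07 to 29.0). Icosl had 6 against 3 UMIs and a ratio of 4.55 (0.972 to 28.1), an interval that includes 1. H2-Oa encodes a chain of H2-O, the inhibitor of H2-DM, and was at 51.2 CPM in dendritic cell-like, 7.50 CPM in monocyte-like and 23.1 CPM in microglia-like cells. With H2-Oa, unlike with its target H2-DM, microglia-like cells stood above monocyte-like ones.

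Class II transcripts of microglia-like cells were concentrated in few cells. Cells with at least 5 class II UMIs numbered 894, or 2.42%, and held 70.8% of the class II UMIs of the gate, and 163 cells with at least 50 held 44.5%. Without suffix 1 the cells with at least 5 held 52.8%. With each cell thinned to 500 UMIs, so that depth was equal, they held 47.2%. To see how the members moved together, microglia-like cells were binned by their Cd74 UMIs after this thinning, with 35176 cells at 0, 1284 at 1, 197 at 2, 160 at 3 to 4, 125 at 5 to 9 and 43 at 10 or more. The bins use Cd74, so its own level in them is not a finding. A cell at 0 lacked Cd74 in its thinned UMIs only, and the lowest bin, whose cells are called Cd74-zero, still had 5259 Cd74 UMIs, or 61.1 CPM, when all UMIs were counted.

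**Figure D2:**
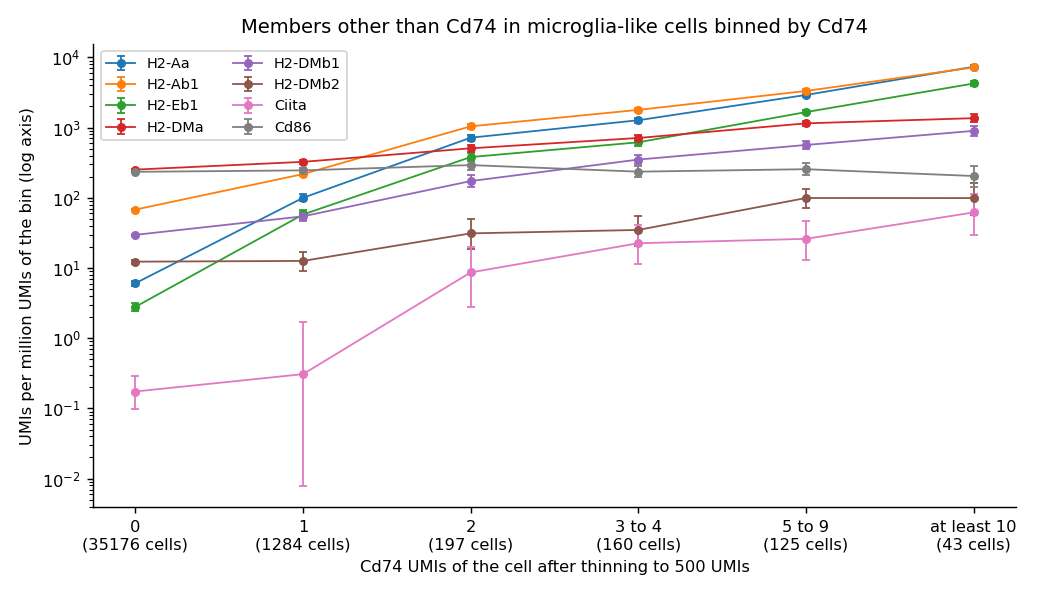
Level of the members, in UMIs per 1000000 on a log axis, in microglia-like cells binned by Cd74 UMIs after thinning to 500 UMIs per cell, with exact Poisson 95% intervals. H2-Aa went from 6.06 to 7355 CPM and H2-DMa from 252 to 1363 CPM between the first and the last bin, while Cd86 stayed between 204 and 292 CPM.

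H2-Aa was at 6.06, 100, 718, 1274, 2918 and 7355 CPM from the lowest to the highest bin. H2-Eb1 ran alongside it at 2.80, 57.9, 381, 617, 1664 and 4251 CPM. In the lowest bin both were at the choroid plexus-like level. H2-Ab1 started higher, at 68.0 CPM, and passed through 218, 1044, 1788 and 3328 to 7200 CPM, so that the partner chains met only at the top. The first bin of H2-Ab1 was above the upper bound of 23.5 CPM in choroid plexus-like cells but not above the 75.3 CPM (40.1 to 129) of NK cell-like cells. H2-DMa was at 252, 325, 507, 712, 1150 and 1363 CPM and H2-DMb1 at 29.7, 54.5, 173, 351, 566 and 898 CPM. Both editing chains were thus above the upper bounds of choroid plexus-like cells in the lowest bin. H2-DMb1 was there below the upper bound of 32.3 CPM in NK cell-like cells, which had 1 UMI of it, and H2-DMa was above their bound of 67.6 CPM. Ciita was at 0.174 and 0.308 CPM in the 2 lowest bins and at 8.65, 22.6, 26.0 and 62.0 CPM in the others. Cd86 was at 235, 246, 292, 236, 256 and 204 CPM, with no order.

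The 168 cells with at least 5 thinned Cd74 UMIs, or Cd74-high cells, were compared with the cells at 0. Beside Cd74, 6 members were called higher, namely H2-Aa, H2-Ab1, H2-Eb1, H2-DMa, H2-DMb1 and H2-DMb2, where 0.67% of 7761 genes were called higher and 0.193% lower. The ratio was 684 (622 to 753) for H2-Aa and 850 (741 to 979) for H2-Eb1. It was 64.7 (61.7 to 67.8) for H2-Ab1, 22.2 (19.9 to 24.7) for H2-DMb1, 8.06 (6.08 to 10.5) for H2-DMb2 and 4.79 (4.44 to 5.17) for H2-DMa. These ratios ordered the members as the comparison of dendritic cell-like with microglia-like cells did for H2-Aa and H2-Eb1 above H2-Ab1, and H2-DMa last of the called ones. Ciita had 21 UMIs in Cd74-high cells and a ratio of 206 (101 to 431), but had no UMI in the Cd74-high cells of suffix 2, 1 of the 2 suffixes with at least 20 such cells, and was not called. Both Ciita and H2-DMb2 were higher in 2 of the 4 suffixes with at least 10 Cd74-high cells, and the other called members in 4 of 4. Cd86 had a ratio of 1.03 (0.866 to 1.21). Without suffix 1 the ratio of H2-Aa was 1154.

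The pairing of chains shifted along the same axis. For each H2-Ab1 UMI there were 1.41 (1.30 to 1.52) H2-Aa UMIs in dendritic cell-like cells, 1.17 in monocyte-like cells and 0.406 in microglia-like cells. In the Cd74 bins of microglia-like cells this ratio was 0.0892 (0.0814 to 0.0975), 0.460, 0.688, 0.712, 0.877 and 1.02 (0.941 to 1.11). Cd74-zero cells thus had 522 H2-Aa UMIs beside 5854 of H2-Ab1, and in each suffix the ratio in these cells was between 0.0317 and 0.137. For H2-DM, the ratio of H2-DMb1 to H2-DMa UMIs was 0.702 in dendritic cell-like, 0.503 in monocyte-like and 0.140 in microglia-like cells, and went from 0.118 to 0.659 across the bins. The ratio of H2-Eb1 to H2-Aa was steadier, at 0.438 in dendritic cell-like and 0.393 in monocyte-like cells and 0.462 to 0.578 over the bins.

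**Figure D3:**
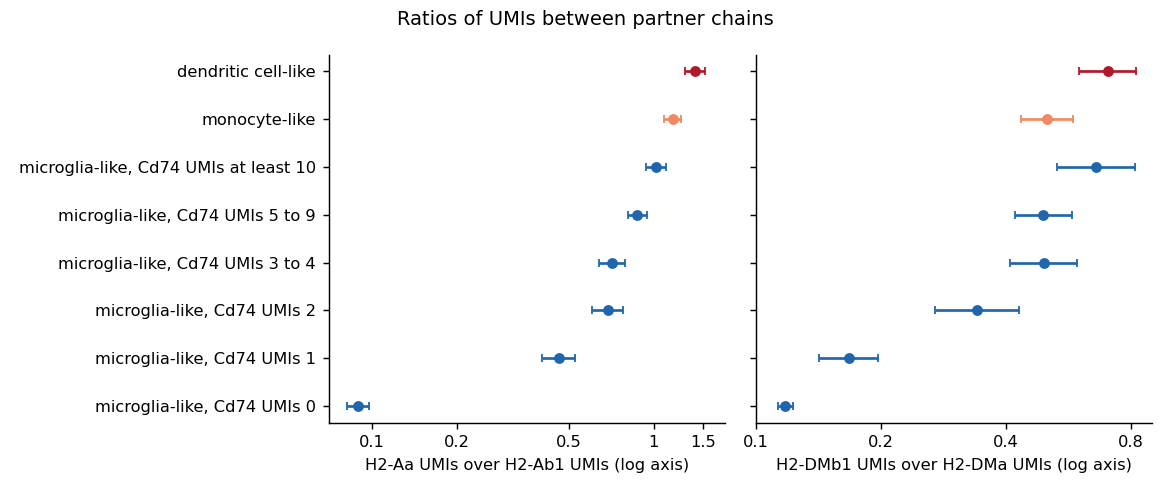
UMIs of H2-Aa over those of H2-Ab1 (left) and of H2-DMb1 over those of H2-DMa (right) on log axes, with exact 95% intervals, in dendritic cell-like, monocyte-like and Cd74-binned microglia-like cells. The left ratio went from 0.0892 in Cd74-zero microglia-like cells to 1.41 in dendritic cell-like cells, and the right one from 0.118 to 0.702.

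How the transcripts were divided between cells with and without Cd74 followed these differences. Cells with no thinned Cd74 UMI made up 95.1% of microglia-like cells and held 12.8% of the H2-Aa UMIs and 12.1% of those of H2-Eb1. They held 63.5% of H2-Ab1, 79.8% of H2-DMb1, 89.1% of H2-DMb2, 92.4% of H2-DMa and 94.9% of Cd86 UMIs. Cd86 was therefore spread like the cells themselves, H2-DMa nearly so, and the H2-Aa and H2-Eb1 chains the least. Cd74-high cells, 0.454% of the gate, held 55.2% of H2-Aa, 56.8% of H2-Eb1 and 18.3% of H2-Ab1 UMIs.

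Detection in single cells gave the same order. At 500 UMIs per cell, an H2-Aa UMI was found in 14.6% of the 1809 microglia-like cells with Cd74 and in 0.219% of those without, and an H2-Eb1 UMI in 10.2% and 0.119%. In choroid plexus-like cells at the same depth, 0.562% had an H2-Aa UMI, against the 0.219% of microglia-like cells without Cd74. The choroid plexus-like cells had only 2 H2-Aa UMIs before thinning, so the order of these shares is uncertain. For H2-Ab1 the shares were 19.6% and 3.32%, for H2-DMa 18.2% and 12.3%, for H2-DMb1 5.75% and 1.28%, and for Cd86 12.1% and 12.0%. In dendritic cell-like cells with Cd74, 37 in number, 78.4% had an H2-Aa UMI, and in the 62 such monocyte-like cells 72.6% had one. As a description, Pearson's r of the thinned UMIs, on a log2 scale, of Cd74 and H2-Aa over cells, which share their library and depth, was 0.43 over 36985 microglia-like, 0.75 over 47 dendritic cell-like and 0.84 over 134 monocyte-like cells. For Cd74 and H2-DMa r was 0.05, 0.10 and 0.28 in the same gates, and for Cd74 and Cd86 it was 0.00, 0.15 and -0.05. Over microglia-like cells, r of Cd74 and H2-Aa was 0.54 in suffix 1 and 0.33 without suffix 1. Counts of microglia-like cells were sparse, and nothing is drawn from the small values.

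Suffix 1 stood apart in the microglia-like gate. The summed class II level was 1158, 256, 192, 189, 316 and 316 CPM in suffixes 1 to 6. With unshared barcodes alone it was 1335, 240, 170, 161, 300 and 307 CPM, and with shared ones 450, 317, 462, 378, 356 and 388 CPM. The shared barcodes were thus more alike across suffixes than the others, and suffix 1 stood out more without them. Without suffix 1 the pooled level was 259 CPM in place of 437 CPM. The labels do not give the mouse, the group or the batch of suffix 1, and their part in its level was not tested.

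**Figure D4:**
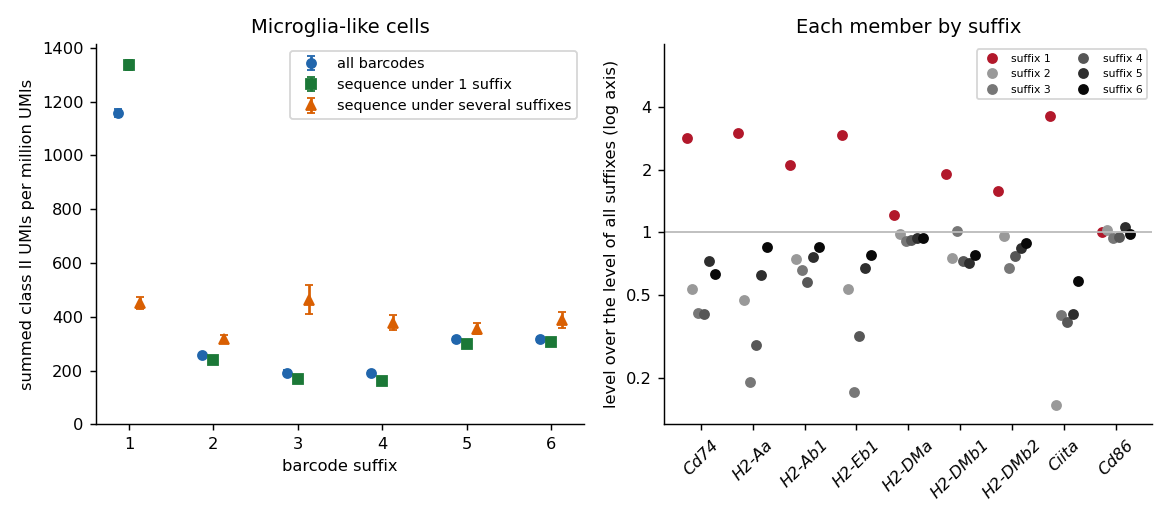
Summed level of Cd74, H2-Aa, H2-Ab1 and H2-Eb1 in microglia-like cells by barcode suffix, in UMIs per 1000000 with exact Poisson 95% intervals, for all, unshared and shared barcodes (left), and the level of each member in a suffix over its pooled level on a log axis (right). Suffix 1 was at 1158 CPM for the sum and the other suffixes at 189 to 316 CPM, and Cd86 alone was not highest in suffix 1.

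Suffix 1 also stood apart in the number of Cd74-high cells. It held 109 of the 168 such cells, 1.47% of its microglia-like cells, and the other suffixes held 21, 6, 13, 11 and 8 cells, or at most 0.233%. Among unshared barcodes the share was 2.48% (2.02 to 3.00) in suffix 1 and 0.0945% to 0.254% in the others. Cd74-zero cells were also highest in suffix 1, at 212 CPM of class II against 99.3 to 147 CPM. By Cd74-high cells alone, the level was 24018 CPM in suffix 1, 25741 in suffix 2, 15243 in suffix 3, 20538 in suffix 4, 32785 in suffix 5 and 54792 CPM in suffix 6. Suffix 1 thus had many Cd74-high cells and not the highest ones.

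Cd74-high cells were not alike across suffixes. Tmem119, a microglia marker, was at 2108, 1516, 1418, 656, 628 and 500.2 CPM in suffixes 1 to 6. Lyz2, the lysozyme gene of monocytes and macrophages, was at 742, 2857, 3545, 11389, 14359 and 16199 CPM. In these values of all barcodes, the suffixes with fewer Tmem119 transcripts were those with more Lyz2. Ccr2, a monocyte marker, was at 2.41, 58.3, 0, 154, 351 and 1501 CPM, and Ms4a7, a gene of macrophages, at 0, 117, 0, 618, 678 and 693 CPM. With unshared barcodes alone Lyz2 was at 625 CPM in 102 cells of suffix 1 and at 13727, 15885 and 16649 CPM in the 7, 5 and 6 cells of suffixes 4, 5 and 6. It was at 2202 CPM in 16 cells of suffix 2 and at 622 CPM in 2 cells of suffix 3, from 3 UMIs. The inverse order of Tmem119 and Lyz2 therefore did not hold for suffix 3 in unshared barcodes. Cd74-high cells of suffix 1 also had Irf1, a transcription factor of the interferon response, at 465 CPM. In the other suffixes Irf1 had 0 to 146 CPM, from 10 or fewer UMIs. Over all suffixes these cells held 7 of 7 microglia markers at 8195 CPM, against 12540 CPM in cells at 0. Monocyte markers were at a summed 122 CPM, with Ly6c2 and Chil3 at 0, and dendritic cell markers at 18.8 CPM. The microglia-like gate asks for 2 microglia markers and excludes cells of the other gates, so such sums follow in part from the rule. Of the 7 border macrophage markers, Pf4, Cbr2, Lyve1, Cd163 and Folr2 were at 0 and 2 were detected. The 7 summed to 10.3 CPM, against 5.17 CPM in cells at 0. Mrc1, another of them, was at 8.56 CPM from 5 UMIs, against 3.59 CPM in cells at 0. The part of monocyte-derived transcripts in these values was not tested.

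**Figure D5:**
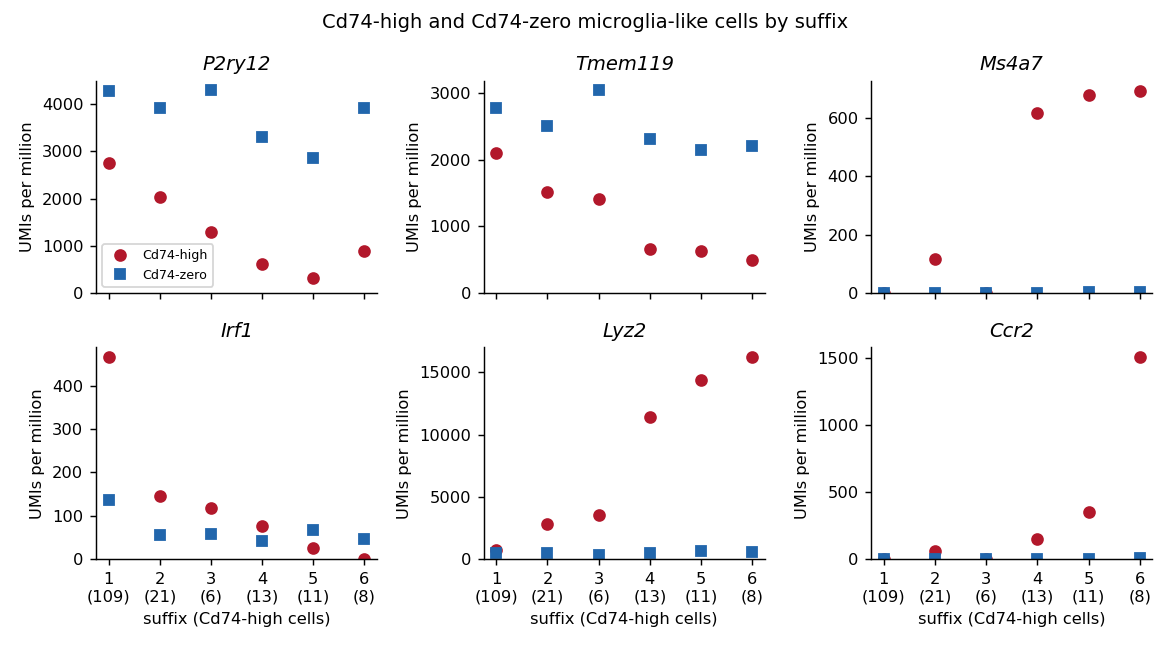
Levels of 6 genes in UMIs per 1000000, on linear axes, in Cd74-high (circles; 109, 21, 6, 13, 11 and 8 cells in suffixes 1 to 6) and Cd74-zero (squares) microglia-like cells of each barcode suffix, as single values with no error bars. Tmem119 went from 2108 CPM in suffix 1 to 500.2 CPM in suffix 6, and Lyz2 from 742 to 16199 CPM in Cd74-high cells.

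Across the 7761 genes compared, the leading ones in Cd74-high over Cd74-zero cells outside the members were Gm5150, Ms4a7, Ccl8, Il18bp, Wfdc17, Gbp2b, Saa3, S100a6, Gbp2 and Cxcl2. Gbp2 and Gbp2b are interferon-induced GTPases, and Ccl8 and Cxcl2 are chemokines. This order pools suffixes that differed. In the Cd74-high cells of suffix 1, Gm5150, Ms4a7, Saa3 and S100a6 had 0 UMIs and Cxcl2 was at 12.0 CPM, below the 29.4 CPM of Cd74-zero cells there. Cxcl2 was at 8223 CPM in suffix 4. Gbp2 was seen in the Cd74-high cells of suffix 1 only, and Ccl8 in those of suffixes 1 and 5. Of the wider pathway genes reported here, Irf1 and Cd274 were called higher, with pooled ratios of 5.12 and 4.81, and none was called lower. In suffix 1 Irf1 was at 465 CPM in Cd74-high and 137 CPM in Cd74-zero cells, below the 4-fold limit. The values were 146 and 55.5 CPM in suffix 2. In suffixes 5 and 6 Irf1 was lower in Cd74-high cells, at 25.1 and 0 CPM against 68.4 and 46.5 CPM. Cd274 rested on 13 UMIs in Cd74-high cells and was higher in 2 of the 4 suffixes with at least 10 of them. Cd274 encodes PD-L1, an inhibitory ligand of T cells.

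Microglia-like cells were also divided by state, from genes outside the members. Interferon-response cells had UMIs of at least 3 of Ifit1, Ifit2, Ifit3, Isg15, Rsad2, Usp18, Irf7 and Oasl2, and cycling cells of at least 2 of Mki67, Top2a, Birc5, Cdk1, Rrm2, Pbk and Nusap1. Lipid-associated cells had at least 2 of Lpl, Fam20c and Mmp12, and chemokine-expressing cells had both Ccl2 and Ccl12. The 583 interferon-response cells had a summed level of 1094 CPM, the 8255 chemokine-expressing cells 631 CPM, the 620 lipid-associated cells 423 CPM, the 270 cycling cells 395 CPM and the other 27257 cells 312 CPM. Suffix 1 carried much of this, for interferon-response cells were at 5312, 966, 261, 276, 740 and 338 CPM in suffixes 1 to 6, and chemokine-expressing cells at 2152, 355, 186, 151, 385 and 254 CPM. The share of Cd74-high cells was 1.89% in interferon-response cells and 0.275% in the other cells, and without suffix 1 it was 0.394% (0.0478 to 1.42) and 0.163% (0.113 to 0.226). Without suffix 1 these intervals overlapped. No Ciita UMI was found in the interferon-response, lipid-associated or cycling cells, which allows up to 1.74 CPM in the interferon-response cells, and 29 and 24 Ciita UMIs were found in chemokine-expressing and other cells.

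The genes whose pattern was most like that of the summed class II level were sought over 28 groups of a gate and a suffix, by Pearson's r of log2(CPM + 10). None of these groups was dendritic cell-like, since each needed 20 cells. Some hold cells that passed no gate, at up to 17871 CPM of class II (suffix 3). Others hold cells that passed several gates, at up to 13647 CPM (suffix 6), and r rests in part on such groups. The groups share libraries, and r is given as a description. The closest were Cybb, a subunit of the phagocyte NADPH oxidase, at 0.94, Lyz2 at 0.93, Ms4a6c at 0.92, the chemokine genes Cxcl2 at 0.92 and Ccl9 at 0.90, and Fgr, a kinase of myeloid cells, at 0.89. Jaml, Ccl6, Msr1 and Pla2g7 followed at 0.88. By the same measure Ciita reached 0.77 and Cd86 0.64. Lyz2 was nevertheless higher in monocyte-like cells, at 28479 CPM, than in dendritic cell-like cells, at 5101 CPM, the opposite order to that of class II.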

How the data were processed

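CD45+ cells of 6 SCID mice with U87 xenografts were profiled, 3 per group. The authors aligned reads to mm10 with Cell Ranger 3.1 and aggregated the 6 libraries, and the submitters' notes also name Seurat 3.1.5. The deposited matrix holds raw UMI counts of 31053 genes in 40411 barcodes and no other columns (0 left unused). Labels tie no suffix to a mouse, so the matrix was treated as 1 pooled sample. Following the study's methods, each kept barcode had more than 200 genes, no more than 2500, and less than 5% of its counts on mitochondrial genes, and the upper limit was the only step against doublets. Gates needed 2 markers (choroid plexus 3) and, outside microglia, at most 1 microglia marker. The dendritic cell and NK cell gates took precedence over the monocyte gate. CPM divides the UMIs of a gene by the total UMIs of the cells in a group. Intervals are exact 95% intervals, Poisson for CPM, Clopper-Pearson for shares and conditional binomial for ratios, and they cover counting error only. Calls needed a 4-fold ratio, 10 CPM in either group and the same direction in every suffix with 20 cells of both. For shares and bins each cell was thinned to 500 UMIs. Named genes were all members, the wider list's called, cathepsin and RFX genes, and the leading or most alike genes by rank. The values of Tmem119, Lyz2, Ccr2, Ms4a7 and Irf1 by suffix were picked after they were seen, and some genes of the lists are not reported here. The members, lists and markers were chosen with earlier results of these data known. Gene positions are from GENCODE M21 on GRCm38. Python 3.11.15, numpy 2.4.6 and scipy 1.17.1 were used. The calls were also run on counts simulated from a single mean profile. That simulation had no variation between cells or suffixes other than depth and no change near the 4-fold limit. It therefore does not measure the errors of the calls in these data.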

Additional observations from a re-analysis of the deposited data

Results flagged for a closer look

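Suffix 1 was the highest of the 6 suffixes in microglia-like cells, with a gap to the next suffix beyond Dixon's 95% value, for 8 members and for the share of Cd74-high cells. Chance flags about 1 in 20 such sets if the 6 values are independent and alike. The libraries differ in group and time point and share barcode sequences, so this rate is only nominal here. The 8 members were measured in the same cells, so these flags are not separate from each other. Cd74 was at 697 CPM with the next suffix at 181 CPM, H2-Aa at 141 and 40.2 CPM, and H2-Ab1 at 244 and 99.6 CPM. H2-Eb1 was at 75.1 CPM in suffix 1. H2-DMa was at 321 and 260 CPM, H2-DMb1 at 70.6 and 37.9 CPM, H2-DMb2 at 20.7 and 12.7 CPM, and Ciita at 2.11 and 0.339 CPM. The share of Cd74-high cells was 1.47% and 0.233%. Cd86 had no such gap. The labels do not give the group, the time point or the batch of suffix 1, and their part was not tested.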

How the results depend on the processing

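No paired analysis was possible because the barcodes carry no replicate number of the labels. With dendritic cell-like cells at 26017 CPM, the level was 21785 CPM with any number of microglia markers allowed, 24043 CPM thinned to 500 UMIs, 26810 CPM without shared barcodes, and 23701 to 28576 CPM with each suffix left out in turn. With microglia-like cells at 437 CPM, it was 471 CPM with no upper limit on genes, 452 CPM with at least 1000 UMIs, 442 CPM with 3 markers, 352 CPM thinned, 405 CPM as a mean over suffixes, 450 CPM without shared barcodes and 259 to 498 CPM over suffixes left out, lowest without suffix 1. The ratio of 59.6 was 54.7, 57.8, 49.9 and 68.3 with no upper limit, at least 1000 UMIs, any microglia markers and thinning, and 51.5 to 101 over suffixes left out, highest without suffix 1. Without shared barcodes the member ratios were 52.0 for Cd74, 124 for H2-Aa, 38.6 for H2-Ab1, 99.9 for H2-Eb1 and 153 for Ciita. Members called were 7 thinned and 8 under every other setting that gave a value. The 70.8% of class II UMIs in cells with at least 5 was 73.5%, 72.4%, 71.6%, 47.2%, 56.3% and 74.3% with no upper limit, at least 1000 UMIs, 3 markers, thinning, a mean over suffixes and no shared barcodes, and 52.8% to 73.3% over suffixes left out. The H2-Aa ratio of 684 was 616 with no upper limit, 903 thinned, 734 without shared barcodes, 494 as a mean over 2 suffixes and 599 to 1154 over suffixes left out. Where the construction does not show it, the cause was not tested. H2-DMb2 had 0 UMIs in thinned dendritic cell-like cells and so gave no ratio there, and in the settings that gave a ratio no member changed direction. The setting without shared barcodes was chosen after seeing the data. A mean over suffixes gave no value for dendritic cell-like cells, whose largest suffix held 18. Few cells limit that gate, and H2-DMb2 and Ciita rest on 23 and 24 UMIs there.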
